A study of Rattus norvegicus with 8 samples.

Results

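MHC class I molecules carry peptides from proteins made inside the cell to the cell surface, where CD8+ T cells read them. The 9 rat genes described here cover that route: the heavy chains RT1-CE11 and RT1-CE4, the light chain B2m, the peptide transporter subunits Tap1 and Tap2, the loading chaperone Tapbp, and the immunoproteasome subunits Psmb8, Psmb9 and Psmb10. They were taken from a list of symbols, matched through the transcript accession that the array design gives for each probe. All 9 had a probe, among 15168 gene symbols with one, and all 9 stood among the 22871 features tested. Each gene had exactly 1 probe. The set was chosen on the log2 values of high-fat diet against chow, with results of that comparison in view, so those values describe these arrays and carry no test of the group.

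Total RNA from the livers of male rats aged 22 weeks was hybridised to 8 single-colour Agilent arrays. The 5 high-fat arrays came from rats labelled as having NAFLD (non-alcoholic fatty liver disease) after 14 weeks of high-fat diet. The 3 chow arrays came from control rats kept for the same time on standard chow. The labels give no rat strain, and they do not say that every sample is a separate animal, so a p-value here reflects only how far these samples vary, which may be technical. Values are log2 of the background-subtracted signal minus the 75th percentile of the array, and 0 on this scale is therefore that percentile.

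In the usual order of events, the proteasome cuts proteins into peptides, and under interferon the catalytic subunits Psmb8, Psmb9 and Psmb10 take the places of Psmb5, Psmb6 and Psmb7. Tap1 and Tap2 form a pump that moves the peptides into the endoplasmic reticulum, where tapasin (Tapbp) holds empty heavy chains beside the pump until a peptide binds. A heavy chain needs beta-2-microglobulin (B2m) to reach the surface. The rat heavy chain genes lie in the RT1 complex, and its RT1-CE region holds many closely related copies whose number and sequence vary between strains. Hepatocytes carry MHC class I at a low level at rest, and interferons raise it.

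The first 300 bases around each gene start (250 before it and 50 after it) were read from RefSeq promoters of assembly GRCr8, since promoter elements for interferon and NF-kB are the textbook switches of these genes. All 9 genes matched a promoter. The 5 shown belong to both heavy chains, whose signal was higher on high-fat diet, and to B2m, Tap1 and Tapbp, where both kinds of listed element occur. Windows are written 5′ to 3′ along the gene. Capitals mark matches to the interferon-stimulated response element (ISRE, which is GAAA, any 2 bases and GAAA) and to the NF-kB site (GGG, any 2 bases and TTTCC). In the heavy chains the first run of capitals is the class I enhancer A core and the second a shorter ISRE (GAANNGAAA), both of which were added after the sequences had been read. The shorter form is in capitals wherever it occurs. In Tapbp the run of capitals holds 2 overlapping copies of the ISRE and, at its end, the shorter form. The windows are chr20:3363149-3363448 for RT1-CE11, chr20:3509107-3509406 for RT1-CE4, chr3:129549080-129549379 for B2m, chr20:4668494-4668793 for Tap1 and chr20:4967828-4968127 for Tapbp. B2m is read from the plus strand and the other 4 from the minus strand.
RT1-CE11: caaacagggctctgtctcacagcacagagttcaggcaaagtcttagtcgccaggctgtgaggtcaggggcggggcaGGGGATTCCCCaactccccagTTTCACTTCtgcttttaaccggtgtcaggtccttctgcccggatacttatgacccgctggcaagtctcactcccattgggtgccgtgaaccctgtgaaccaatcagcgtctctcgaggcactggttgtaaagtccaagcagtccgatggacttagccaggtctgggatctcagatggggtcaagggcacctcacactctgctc
RT1-CE4: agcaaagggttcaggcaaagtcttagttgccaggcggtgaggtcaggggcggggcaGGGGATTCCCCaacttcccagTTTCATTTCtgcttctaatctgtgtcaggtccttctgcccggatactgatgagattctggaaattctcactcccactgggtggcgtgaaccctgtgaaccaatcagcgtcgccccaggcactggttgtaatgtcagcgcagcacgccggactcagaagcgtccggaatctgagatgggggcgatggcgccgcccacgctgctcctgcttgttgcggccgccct
B2m: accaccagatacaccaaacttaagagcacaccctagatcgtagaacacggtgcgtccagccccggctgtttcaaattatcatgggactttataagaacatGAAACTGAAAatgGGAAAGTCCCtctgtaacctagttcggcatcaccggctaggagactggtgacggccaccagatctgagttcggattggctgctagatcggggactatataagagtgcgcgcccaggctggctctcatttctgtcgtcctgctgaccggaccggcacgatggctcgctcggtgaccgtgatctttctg
Tap1: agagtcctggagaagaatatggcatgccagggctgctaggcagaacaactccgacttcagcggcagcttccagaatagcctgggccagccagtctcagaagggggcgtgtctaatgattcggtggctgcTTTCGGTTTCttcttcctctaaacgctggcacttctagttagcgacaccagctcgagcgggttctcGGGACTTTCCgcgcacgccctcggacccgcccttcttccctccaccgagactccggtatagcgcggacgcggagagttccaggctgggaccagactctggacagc
Tapbp: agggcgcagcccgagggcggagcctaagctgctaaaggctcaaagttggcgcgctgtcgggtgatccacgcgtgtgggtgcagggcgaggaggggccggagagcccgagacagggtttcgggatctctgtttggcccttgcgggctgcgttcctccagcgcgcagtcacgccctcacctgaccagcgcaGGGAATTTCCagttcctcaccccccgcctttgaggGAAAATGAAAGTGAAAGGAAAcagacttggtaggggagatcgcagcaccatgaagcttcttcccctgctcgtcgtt

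The ISRE was found in 6 of the 9 promoters (B2m, Tap1, Tap2, Tapbp, Psmb8 and Psmb10), against 3.92% of 33469 rat promoters of the same length, with both strands searched. Tapbp held 2 overlapping copies, which began 26 and 20 bases before the gene start, and Psmb10 held 2 separate copies. The NF-kB letters were in B2m, Tap1 and Tapbp, against 1.53% of all promoters. Only this spelling was searched as NF-kB, so a promoter without it, heavy chains included, may still hold such a site. In B2m the ISRE began 150 and the NF-kB site 137 bases before the start. The other listed motifs were the GAS element (TTCNNNGAA), found in Psmb8 alone of the 9 and in 8.87% of all promoters, and the Y box (CCAAT), found in 5 of the 9 and in 37.5% of all.

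Neither heavy chain promoter held the full ISRE. Both held the enhancer A core, 174 bases before the start in RT1-CE11 and 194 in RT1-CE4, followed after a few bases by the shorter ISRE. The core was in 5 of 23 promoters of other RT1 class I genes and in 0.0627% of all promoters. The shorter ISRE was in 5 of the 9 promoters, 10 of the 23 and 8.54% of all, and it overlaps the full ISRE in Tap2, Tapbp and Psmb8. The promoters of RT1-CE11 and RT1-CE4 were identical at 84.3% of 280 aligned bases (236), with their unpaired ends left out. Against other RT1-CE promoters the identity for RT1-CE11 ran from 65.6% with RT1-CE2, over only 32 aligned bases, to 87.8% with RT1-CE10, over 279. RT1-CE4 reached 85.7% with RT1-CE5, at 234 of 273 aligned bases. By percent identity each was thus nearest to a gene that was not called, though for RT1-CE4 the margin over RT1-CE11 was small. A match is a run of letters, and no binding was measured here. The map of matches shows that the ISRE, full or short, fell within the window of every gene except Psmb9.

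**Figure D1:**
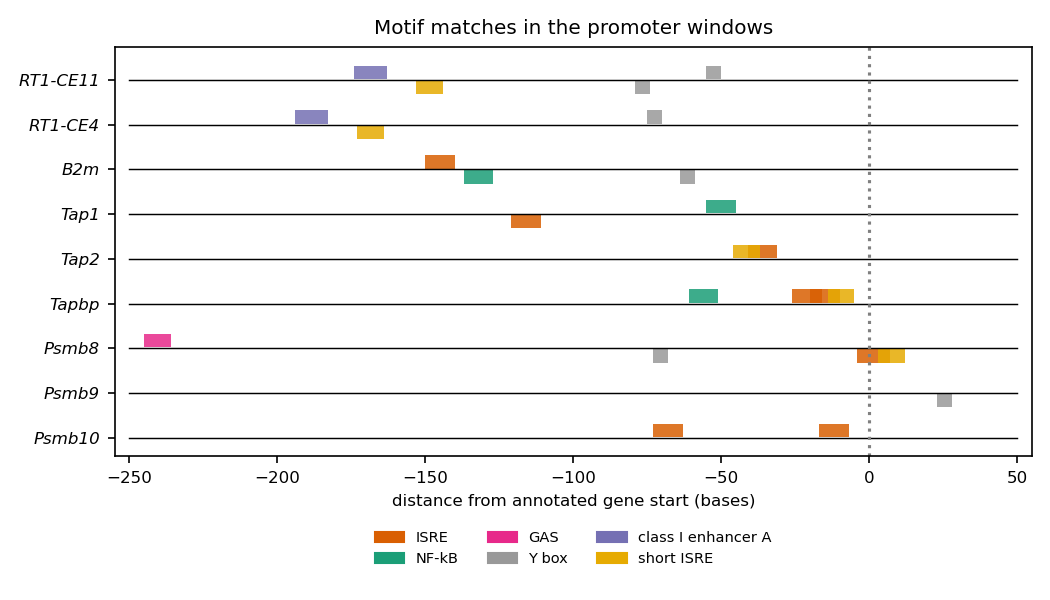
Motif matches in the promoters of the 9 genes, 1 row for each gene, with distance from the gene start in bases on the x axis and 1 symbol for each motif. The heavy chains share enhancer A beside a short ISRE, and 6 other genes hold the full ISRE.

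In the same assembly Tap2, Psmb8, Tap1 and Psmb9 are 4 neighbouring genes of chromosome 20, on which RT1-CE11, RT1-CE4 and Tapbp also lie. Tap1 and Psmb9 are read in opposite directions, and their promoter windows overlap. B2m is on chromosome 3 and Psmb10 on chromosome 19. These positions were used for names and neighbours alone, because the array was designed on an older build.

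Signal was stronger on high-fat diet, where the 75th percentile lay at 725 to 1045 intensity units and 79.0% to 92.7% of probes were well above background, against 278.2 to 558.9 units and 66.9% to 71.7% on the chow arrays. Arrays that share a scan time are called a slide here: slide 1 held high-fat arrays 1 and 4, slide 2 held high-fat arrays 2, 3 and 5, and slide 3 held all 3 chow arrays. No slide held both diets, and the effects of slide and diet cannot be told apart. Slide 1 was scanned on another day than slides 2 and 3. A difference between slides 1 and 2 therefore cannot be told apart from one between scan days. All 9 genes were well above background on all 8 arrays. The hepatocyte markers were too, 7 of 7.

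The probes of RT1-CE11 and RT1-CE4 read higher on high-fat diet, and none of the other 7 genes of the route was called. These 2 genes are called the heavy chains here, but other RT1 class I genes, described below, also encode heavy chains. Of the 9 genes, 2 passed an adjusted p of 0.05 in limma's moderated linear model, both higher, and 0 passed lower. Over all features 3.56% passed, 3.07% higher and 0.49% lower. Before adjustment 3 of the 9 passed, against 20.2% of features, and in a fit of every probe 2 of the 9 probes passed, against 3.45%. The median log2 fold change was −0.05 over the 9 genes and −0.01 over all features. High-fat and chow arrays did not overlap in 3 of the 9 genes (2 higher, 1 lower), against 17.1% of all features (7.94% higher, 9.17% lower). As these genes were picked with the contrast known, the shares are given for scale alone.

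RT1-CE11, a heavy chain gene of the RT1-CE region, had log2 values of 0.21, 0.01, −0.16, 0.17 and −0.26 on high-fat arrays 1 to 5, against −1.84, −1.50 and −1.63 on the chow arrays. The lowest high-fat value lay 1.25 above the highest chow value. Its log2 fold change was 1.65 ± 0.17 (SE; 5 against 3 arrays), a 3.14-fold higher signal, with an adjusted p of 0.00167 in limma. The unscaled processed signal was 731.7 to 937.6 units on high-fat arrays and 83.96 to 197.3 units on chow arrays. The raw signal stood 25.6 to 33.3 times over its local background on high-fat arrays and 5.79 to 14.3 times on chow arrays, so the chow values were dim but measured.

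RT1-CE4, a second heavy chain gene of that region, had −0.43, −0.04, −0.01, −0.38 and −0.09 on high-fat arrays 1 to 5, against −1.48, −1.55 and −1.41 on the chow arrays. The groups were again separate, with a gap of 0.98. The log2 fold change was 1.29 ± 0.16 (SE), or 2.45-fold, with an adjusted p of 0.00379 in limma. High-fat arrays 1 and 4 were the lowest of the 5 for RT1-CE4 and the highest of the 5 for RT1-CE11, and both sat on slide 1. With slide fitted as a random block the adjusted p in limma was 0.0409 for RT1-CE11 and 0.0636 for RT1-CE4, so the second call was lost, with log2 fold changes of 1.67 and 1.27.

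Neither probe's sequence was available here, and RT1-CE transcripts are similar enough that 1 probe may read several of them. The labels give no strain, and a strain may lack a copy or carry another sequence under the probe. Which transcript these 2 probes measured is therefore uncertain.

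B2m, the light chain that every classical heavy chain needs, had 6.10, 6.26, 6.07, 6.32 and 6.26 on high-fat arrays 1 to 5, against 6.39, 5.91 and 6.47 on the chow arrays. The high-fat values lay inside the chow range. Its mean was 6.20 ± 0.11 on high-fat arrays and 6.26 ± 0.30 on chow arrays (SD, n = 5 and 3), a difference of −0.05 ± 0.17 (SE; adjusted p = 0.903 in limma). The sign of B2m depended on scaling and was 0.21 after quantile normalization and 0.11 with a normexp background.

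The transporter subunits overlapped between diets. Tap1, which with Tap2 binds and moves the peptide, had −1.90, −1.78, −1.29, −1.23 and −1.22 on high-fat arrays 1 to 5, against −1.47, −1.10 and −1.37 on the chow arrays. The 2 lowest Tap1 values were high-fat arrays 1 and 2, which lie on different slides. Tap2 had −0.67, −0.85, −1.04, −0.76 and −1.29 on the same high-fat arrays, against −1.02, −0.82 and −0.73 on the chow arrays. The log2 fold changes were −0.17 ± 0.21 for Tap1 and −0.06 ± 0.18 for Tap2 (SE; adjusted p = 0.718 and 0.893 in limma).

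Tapbp, the chaperone that bridges the heavy chain to the transporter, was the only one of the 9 whose arrays were separate in the downward direction. Its values were 0.82, 0.86, 0.81, 0.66 and 0.93 on high-fat arrays 1 to 5, against 1.32, 1.33 and 1.38 on the chow arrays, a gap of 0.39. The log2 fold change was −0.53 ± 0.13 (SE) with an adjusted p of 0.0641 in limma, short of the threshold. With a normexp background Tapbp was at −0.21 where the median of all features was −0.29, so relative to that median its sign turned (0.08). Quantile normalization gave −0.46.

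The immunoproteasome subunits had a wider SD among high-fat than among chow arrays, 0.36 and 0.20 for Psmb8 and 0.40 and 0.05 for Psmb9. Psmb8 had 0.64, 0.48, 0.70, 1.40 and 0.98 on high-fat arrays 1 to 5, against 0.64, 1.02 and 0.73 on the chow arrays. Psmb9 had 2.32, 2.14, 1.87, 2.88 and 2.67, against 2.65, 2.58 and 2.56 on the chow arrays. High-fat array 4 was the highest of all 8 for both, and the lowest was also a high-fat array, array 2 for Psmb8 and array 3 for Psmb9. Psmb10 had 3.69, 3.04, 2.36, 4.04 and 3.34 on the high-fat arrays, against 2.81, 2.91 and 2.95 on the chow arrays.

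For Psmb10, whose product replaces the standard subunit Psmb7, high-fat array 3 was the lowest of the 8 and the other 4 high-fat arrays were above all chow arrays. Its SD was 0.64 on high-fat and 0.07 on chow arrays, and its range 1.68 on high-fat and 0.14 on chow arrays. The log2 fold changes were 0.05 ± 0.23 for Psmb8, −0.22 ± 0.23 for Psmb9 and 0.40 ± 0.34 for Psmb10 (SE), with adjusted p-values of 0.94, 0.666 and 0.567 in limma. Whether the spread of these subunits differed between the diets was not tested.

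**Figure D2:**
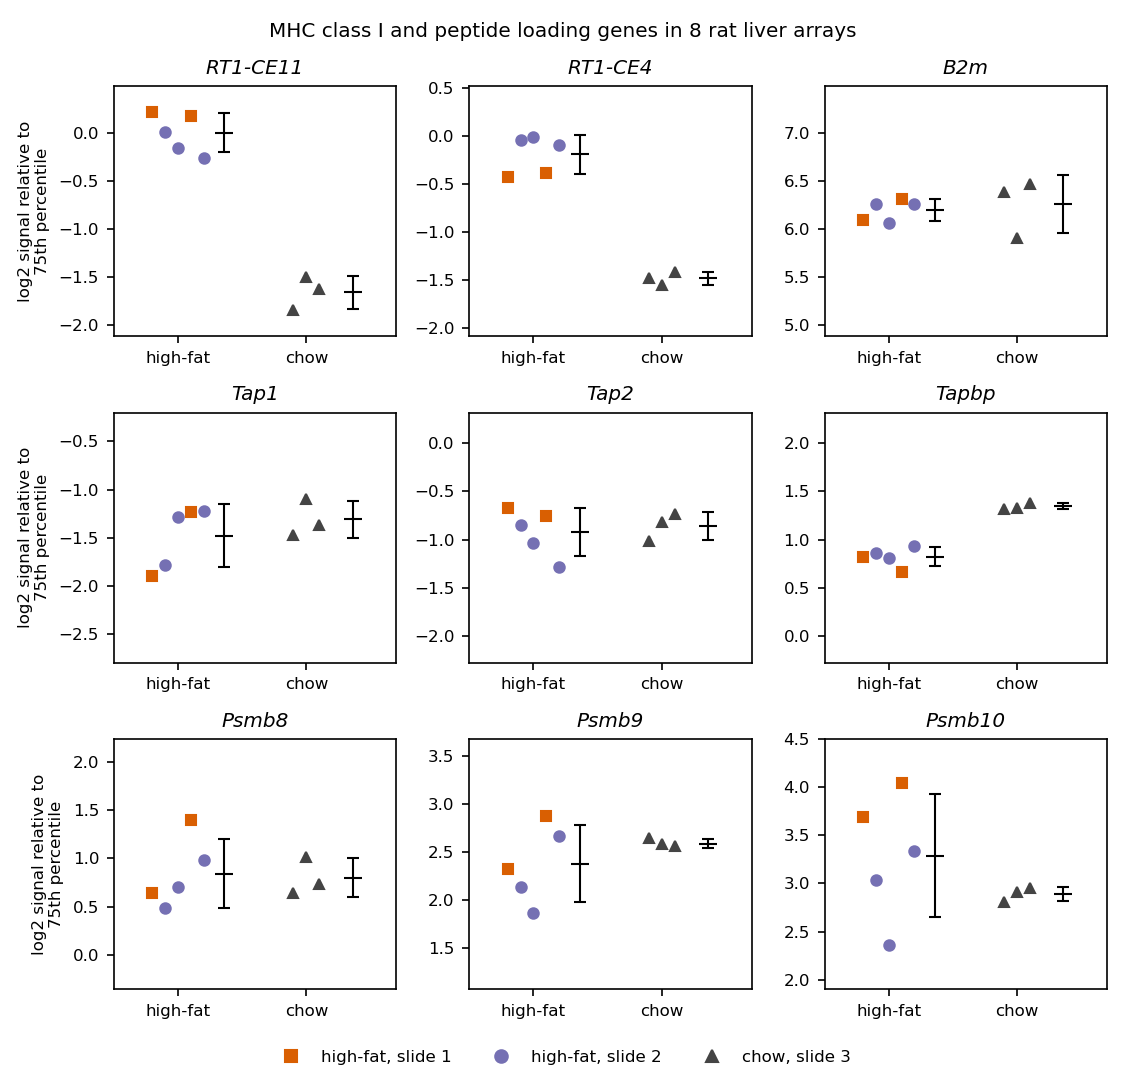
Log2 values of the 9 genes relative to the 75th percentile of each array, 1 panel for each gene, with 5 high-fat arrays left of 3 chow arrays, points for arrays and bars for the group mean and SD. The groups are apart upward for RT1-CE11 and RT1-CE4, apart downward for Tapbp, and overlap for the other 6 genes.

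Other ways of scaling the arrays moved the heavy chains in size but not in sign. For RT1-CE11 the log2 fold change was 1.60 after quantile normalization, 0.99 with a normexp background and 1.60 when fitted on the authors' deposited log2 values, and for RT1-CE4 it was 1.24, 0.90 and 1.24. The normexp background, which adds a fixed offset to every signal and so weighs most on dim ones, moved the median of all features to −0.29; relative to it the heavy chains stood at 1.28 and 1.19. Set against chow by slide, slide 1 gave 1.85 for RT1-CE11 and 1.07 for RT1-CE4, and slide 2 gave 1.52 and 1.44. Leaving out any 1 array kept both calls, with log2 fold changes of 1.56 to 1.73 for RT1-CE11 and 1.25 to 1.35 for RT1-CE4.

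**Figure D3:**
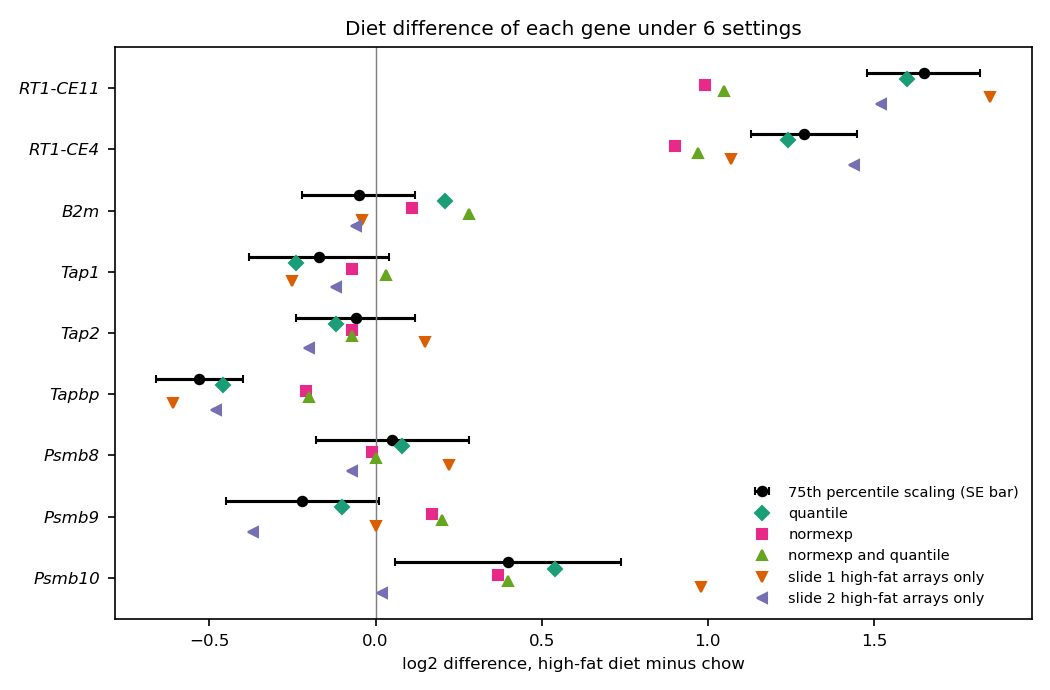
Log2 fold change, high-fat diet over chow, of each of the 9 genes under the main scaling and its alternatives, 1 symbol for each setting. RT1-CE11 and RT1-CE4 stay above 0 under every setting drawn (RT1-CE11 at 0.99 or more), and the other genes lie around 0 or below, apart from Psmb10.

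The slides offered a comparison inside 1 diet that did not enter the choice of genes. Between the high-fat arrays of slide 1 and those of slide 2, 0 of the 9 genes passed an adjusted p of 0.05 in limma, against 28.0% of 22851 features, and 2 passed before adjustment, against 41.2%. The arrays of the 2 slides were apart in 4 of the 9 genes (3 higher on slide 1, 1 lower), against 59.0% of features. RT1-CE11 was 0.33 ± 0.15 higher on slide 1 and RT1-CE4 differed by −0.36 ± 0.13 (SE; adjusted p = 0.157 and 0.091 in limma).

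Psmb10 differed most between slides among the 9. Its mean was 3.87 on slide 1 and 2.91 on slide 2, a difference of 0.95 ± 0.31 (SE; adjusted p = 0.0731 in limma). Against chow, Psmb10 was at 0.98 with the high-fat arrays of slide 1 alone (adjusted p = 0.0352 in limma) and at 0.02 with those of slide 2 alone. Tap2 was 0.34 higher on slide 1 (adjusted p = 0.201 in limma), with the arrays apart. The median slide difference was 0.30 over the 9 genes and −0.14 over all features.

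**Figure D4:**
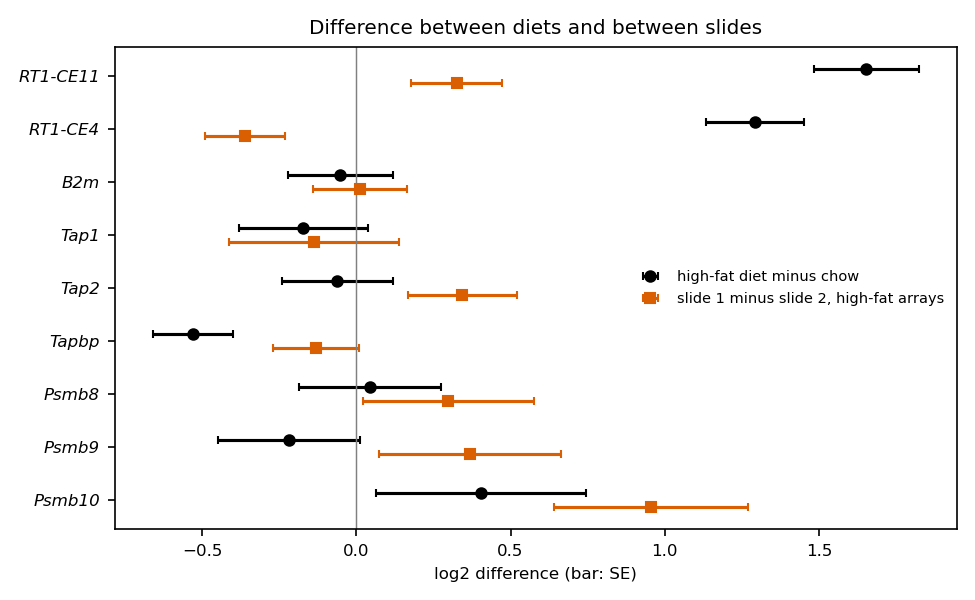
Log2 difference with its SE for each of the 9 genes, high-fat diet minus chow as black points and slide 1 minus slide 2 among high-fat arrays as orange squares. The slide difference runs from −0.36 for RT1-CE4 to 0.95 for Psmb10, and the diet difference, which entered the choice of genes, from −0.53 for Tapbp to 1.65 for RT1-CE11.

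Of 27 other RT1 class I genes with a probe, 23 passed the filter on dim signals, and 21 of these were well above background on arrays of both diets. Over the 21, 6 log2 fold changes were above 0 and 15 below it, with a median of −0.33, beside 11326 above and 11545 below 0 and a median of −0.01 over all features. In limma 0 of the 21 were called and 6 passed before adjustment, against 3.56% and 20.2% of all features. The median of the 21 was −0.18 after quantile normalization, and −0.33 with a normexp background, where all features were at −0.29. With normexp plus quantile normalization 3 of the 21 were called, beside 2115 of 22871 features. The remaining 2, RT1-M5 and RT1-M1-5 of the nonclassical RT1-M region, were well above background on 5 high-fat arrays and 0 chow arrays. They passed the filter through the high-fat arrays alone, and the chow arrays were the dimmer ones, so no fold and no test is given for them.

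Within the RT1-CE region itself, 10 further genes ran from −0.51 to 0.83, with 4 above and 6 below 0 and a median of −0.38. In limma 0 of the 10 were called and 4 passed before adjustment, against 3.56% and 20.2% of all features. The diets were apart upward in 2 and downward in 2, against 7.94% and 9.17% of all features. The genes named from here to the end of the paragraph were chosen after their values were seen. RT1-CE15 had the highest log2 fold change of the 10, at 0.83 ± 0.22 (SE; adjusted p = 0.0816 in limma), with −2.86, −2.74, −2.43, −3.30 and −3.14 on high-fat arrays 1 to 5, against −3.65, −3.95 and −3.57 on the chow arrays. RT1-CE7 was at 0.39 and also apart upward, whereas RT1-CE2 and RT1-CE3 were at −0.41 and −0.47 and apart downward. Both RT1-A genes measured, RT1-A1 and RT1-A2, were at −0.33 and −0.39 by their brightest probes, with adjusted p-values of 0.341 and 0.326 in limma. Their signal was much stronger, with mean log2 values of 5.54 and 4.27 on high-fat arrays, against −0.002 for RT1-CE11 and −0.19 for RT1-CE4.

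Probes for 1 RT1 gene did not always give 1 answer. For RT1-CE5 the brightest probe gave −0.35 and another gave 1.07 ± 0.42 (SE), with an adjusted p of 0.206 in limma over all probes. For RT1-T18 the brightest and the other gave −0.68 and 0.00, and for RT1-A1 −0.33 and −0.03. RT1-CE2 and RT1-S2 had pairs that were closer, −0.41 and −0.50 for RT1-CE2 and −0.62 and −0.66 for RT1-S2. RT1-CE11 and RT1-CE4 have no second probe for such a comparison.

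**Figure D5:**
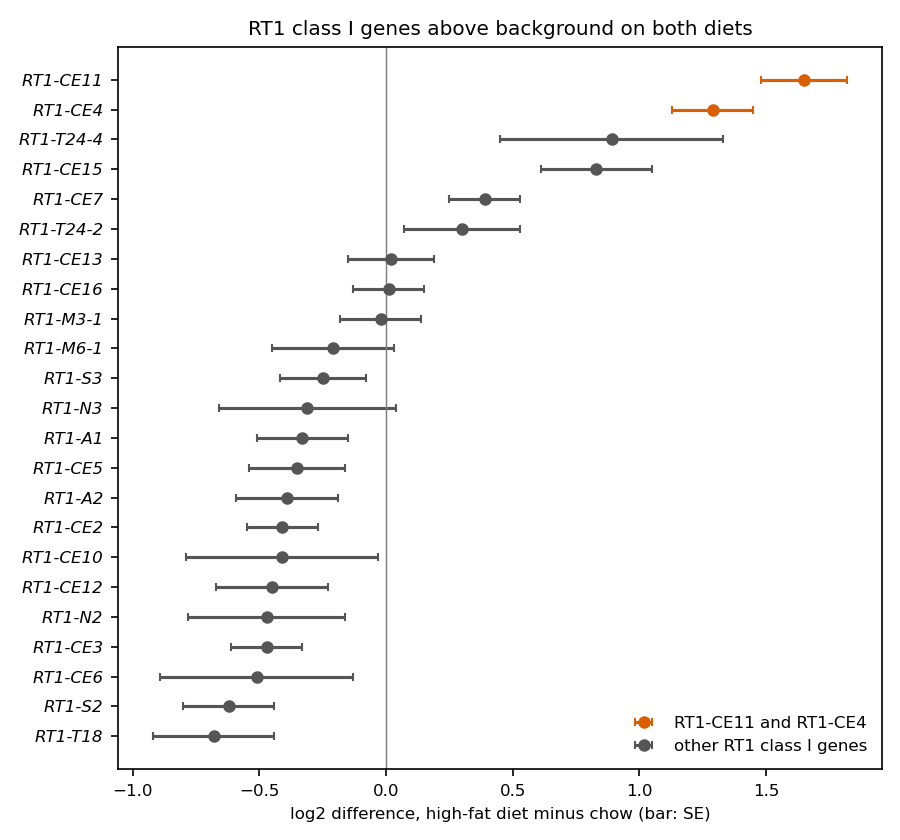
Log2 fold change with its SE, high-fat diet over chow, of RT1-CE11, RT1-CE4 and the 21 other RT1 class I genes that were above background on arrays of both diets. RT1-CE11 and RT1-CE4 lie to the right of the other genes, of which 15 lie below 0.

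Partners in loading and trimming, 8 of 11 listed, had a median log2 fold change of 0.16, with 7 above 0 and 1 below. In limma 0 were called and 0 passed before adjustment, and with 3.56% of all features called a count of 0 in a list of this size, or of the lists that follow, says little. Among them were the lectin chaperones Calr, at 0.06 ± 0.20, and Canx, at 0.03 ± 0.26, which fold and hold heavy chains. Pdia3, the disulfide isomerase of the loading complex, was at 0.35 ± 0.23 (SE; adjusted p = 0.442 in limma). Erap1, which trims peptides to length, was not analysed here.

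The standard catalytic subunits, which the immunoproteasome subunits replace, were below 0 with 75th percentile scaling, though with a normexp background Psmb5 and Psmb6 stood at 0.05 and 0.16 relative to the median of all features. In limma 0 of 3 were called and 0 passed before adjustment, with a median of −0.33. Psmb5 averaged 1.82 ± 0.16 on high-fat and 2.18 ± 0.21 on chow arrays (SD), a difference of −0.35 ± 0.16 (SE; adjusted p = 0.261). Psmb7 averaged 1.98 ± 0.17 on high-fat and 2.31 ± 0.07 on chow arrays (adjusted p = 0.249), with the arrays apart, and Psmb6 was at −0.12 ± 0.12. Of 6 genes of the proteasome activator and assembly, 5 were tested with 0 calls and 0 before adjustment. Psme1 and Psme2, which open the proteasome core under interferon, were at −0.07 and −0.19 (adjusted p = 0.855 and 0.534 in limma).

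Regulators of these genes gave 0 calls in limma over 14 of 16 listed, 1 before adjustment, and a median of −0.05. Nlrc5, the class I transactivator, was not analysed here. Irf1, a factor that acts on the ISRE and that was picked for its role after values were seen, was at −0.31 ± 0.26 (SE; adjusted p = 0.561 in limma). Of 24 genes of interferon and its response 22 were tested, with 0 calls, 3 before adjustment and a median of 0.02. Both chains of the interferon gamma receptor, chosen after their values were seen, were among those 3 and apart downward, Ifngr1 at −0.47 ± 0.14 and Ifngr2 at −0.44 ± 0.14 (adjusted p = 0.113 and 0.13 in limma). The third of the 3, Ifit3, an interferon-induced gene, was at 0.51 ± 0.22 (adjusted p = 0.24). With a normexp background Ifngr1 stood at −0.36 and Ifngr2 at 0.20 relative to the median of all features. With normexp plus quantile normalization Ifngr1 was at −0.63 and called (adjusted p = 0.0107 in limma), and Ifngr2 was at −0.06 (adjusted p = 0.7). That setting called 2115 of 22871 features. Interferon gamma itself (Ifng) was well above background on 2 of the 8 arrays and did not pass the filter.

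Class I-like molecules (Cd1d1, Mr1, Hfe, Fcgrt and Azgp1), which share the class I fold and have other tasks, gave 0 of 5 calls in limma and 1 before adjustment. Over all lists of the pathway 80 of 92 genes were tested and 1 was called, against 3.56% of all features. It was RT1-M5, which had no level above background on chow arrays. As RT1-M5 passed the filter through the high-fat arrays alone, its call is counted here but is no result. These lists were drawn up with earlier results of the same arrays known, and their counts are descriptions.

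Bulk liver RNA mixes cell types, and fewer cells of a type cannot be told apart from less RNA in each. Of 45 markers of liver cell types 41 were tested, and 0 passed in limma, with 8 before adjustment, against 3.56% and 20.2% of all features. With 75th percentile scaling, the only one given for markers, all 7 hepatocyte markers lay below 0, with a median of −0.35, and all 7 overlapped between diets. Their summed linear level, in multiples of the 75th percentile, was 400.0 to 479.0 on high-fat and 433.0 to 691.0 on chow arrays. On chow arrays 1, 2 and 3 Alb was at 7.67, 6.94 and 7.64, and Ttr at 7.74, 7.15 and 7.96. The 75th percentile of these arrays was 300.1, 558.9 and 278.2 units. Cps1 (3.26, 3.88 and 3.52) and Tat (4.39, 4.00 and 3.73) were not lowest on chow array 2. Whether the fall follows array brightness was not tested. The 7 Kupffer cell and macrophage markers were mixed, with 4 above 0, 3 below and a median of 0.13. Clec4f, a Kupffer cell lectin, was at −0.59 and C1qa at −0.45, whereas Csf1r, Cd68, Marco and Cd163 were at 0.40, 0.36, 0.35 and 0.13. The summed linear level of 12 T and NK cell markers was 2.08 to 3.29 on high-fat and 2.20 to 3.09 on chow arrays. Among the 12, Cd3e and Ncr1 were well above background on 5 and 4 high-fat arrays and on 0 chow arrays. As they passed the filter through the high-fat arrays alone, they are counted here but are no result. For the Kupffer cell and macrophage markers, the summed linear level, in which the brightest probes weigh most, was 27.7 to 37.9 on high-fat and 37.7 to 48.6 on chow arrays. For 3 stellate cell markers it was 3.98 to 4.66 on high-fat and 3.01 to 3.79 on chow arrays, with Lrat at 0.44 and Rgs5 and Des at −0.92 and −0.47. Lrat makes up most of this sum, with a mean log2 value of 2.02 on high-fat arrays against −3.26 for Rgs5 and −3.27 for Des. The leukocyte marker Ptprc was at 0.80 to 1.49 on high-fat and 1.06 to 1.62 on chow arrays. The part of cell mixture in the heavy chain values was not tested.

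Likeness of pattern was measured as the root mean square difference of log2 values over the 8 arrays, after each gene was centred on its own mean, among 13279 symbols. For RT1-CE11 the nearest were Ccng1, a cyclin G, at 0.173, Hrh4, a histamine receptor, at 0.196, and Hsd3b2, a steroid dehydrogenase, at 0.200. RT1-CE4 ranked 38th, at 0.342, and was the closest of the other 8 genes. Both heavy chains were chosen with the diet contrast known and were higher on high-fat arrays. This closeness is therefore no separate support. For B2m the nearest was Fn1 (fibronectin) at 0.0531, then Il2rg, the shared cytokine receptor chain, at 0.0678 and Txnrd2, a mitochondrial thioredoxin reductase, at 0.074, while its closest relative in the route was Tap2, ranked 3530. Genes that vary little are near to many others by this measure.

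For Tap1 the genes ranked 2 and 3 were Rb1, a cell cycle repressor, at 0.089 and Gimap7, a GTPase of lymphocytes, at 0.0913. For Psmb8 the 3 nearest were Runx1, a blood cell transcription factor, at 0.0929, Cd247, the T cell receptor zeta chain, at 0.0938, and Gbp5, an interferon-induced GTPase, at 0.109. Tap1 and Psmb8, which are neighbours in the genome, differed by 0.212. Psmb8 ranked 450th for Tap1, and Tap1 ranked 244th for Psmb8. All these points share the same 8 arrays and their slides.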

How the data were processed

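Liver RNA from 8 samples was measured on single-colour arrays, with groups and replicate numbers from the sample titles. Per the file headers, the deposited scanner files hold processed signal intensity, background-subtracted within the array and not scaled between arrays, beside raw intensity of signal and local background. Scans were read with Agilent Feature Extraction 11.0.1.1, per the submitters' processing notes. The authors' deposited value table is on a log2 scale; it correlated with the log2 processed signal at 0.995 to 0.999 per array and its column medians were equal, as after quantile normalization. How it was made is not given in the sources used here.

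From the scanner files, outlier spots were dropped, spots of a probe averaged as log2, and the 75th percentile of the array subtracted. A probe had to have 0.5 or more of its spots well above background on 3 or more of the 8 arrays. Probes were named through a RefSeq table (GRCr8), which gave 18005 probes 15168 symbols, and a gene was represented by its brightest probe on average. limma 3.58.1 (lmFit, eBayes, two-sided) in R 4.3.3 was used, with p-values adjusted by Benjamini-Hochberg across all features and called at 0.05. The fit was tried on simulated data with independent arrays and no slide effect, so that trial says nothing about arrays that share a slide. The number of arrays limits the precision, and 0 pairs of arrays were identical.

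The 9 genes and all lists were chosen with earlier results of these data known. Named were all 9 genes, 10 fixed partners (Nlrc5, Psmb5, Psmb6, Psmb7, Psme1, Psme2, Calr, Canx, Pdia3, Erap1), up to 3 called genes of each list and the 3 nearest genes by pattern for RT1-CE11, B2m, Tap1 and Psmb8. Other names, cell markers included, were chosen after their values were seen. Some results that fall under this rule are not reported here. Alternatives were quantile normalization, a normexp background (offset 50), both together, the deposited log2 table, no filter, the mean of all probes of a gene, slide as a random block, 1 high-fat slide at a time, a replicate block and leaving out each array.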

Additional observations from a re-analysis of the deposited data

Results flagged for a closer look

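Among 28 results looked at for a single array standing apart, 2 had one, and chance gives about 1 in 20 such groups. Psme2, an interferon-induced activator of the proteasome, had 3.64 on high-fat array 3, and the nearest other high-fat array had 4.01, a gap of 0.795 of the range of the 5 arrays. Pdia3, the disulfide isomerase of the loading complex, had 2.72 on the same array and 2.20 on the nearest, a gap of 0.731 of the range. The limit for 5 arrays is 0.71, and neither gene was called between diets in limma.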

How the results depend on the processing

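RT1-CE11 and RT1-CE4 were higher on high-fat diet in all alternatives run, and the calls held in all except these: with slide as a random block (within-slide correlation 0.45) 1 of the 9 genes was called, and with the replicate block 0 were, with RT1-CE11 at 1.68 and RT1-CE4 at 1.32 (adjusted p = 0.0598 and 0.0859 in limma). Same-number correlations of deviations from the group means, each across slides, were 0.045, 0.0347 and 0.0654. So few pairs cannot show whether the replicate numbers pair the samples. With any 1 array left out 2 were called. The median of the 9 genes was 0.20 with normexp plus quantile normalization, and −0.09 to 0.01 with single arrays left out. The median slide difference ran from −0.05 (without high-fat replicate 4) to 0.30; leaving out an array of slide 1 leaves 1 array there, assumed to vary like the others. Calls in the pathway lists, 1 in the report (RT1-M5), were 0 with normexp and 4 with normexp plus quantile normalization. There were 2 in the authors' deposited table, 2 without the filter and 0 with the slide block. Slide 1 alone gave 7, slide 2 alone 5, the replicate block 0, and single arrays left out 0 to 1. Calls over all features moved too, from 815 of 22871 in the report. Over all features there were 149 with normexp, 2115 with normexp plus quantile normalization, 1140 in the deposited table and 1095 without the filter. The slide block gave 84 over all features, slide 1 alone 1979, slide 2 alone 2902 and the replicate block 4. The list counts are therefore no result about the pathway. Signs of small diet differences turned: B2m was 0.21 with quantile normalization, 0.11 with normexp, 0.28 with both, 0.21 in the deposited table and −0.23 to 0.06 with single arrays left out; Tap1 was 0.03 with both; Tap2 was 0.15 with slide 1 alone, 0.01 with the replicate block and −0.14 to 0.03 with arrays left out. Psmb8 was −0.01 with normexp, −0.003 with both, −0.07 with slide 2 alone, −0.19 with the replicate block and −0.09 to 0.16 with arrays left out, and Psmb9 was 0.17 with normexp, 0.20 with both and 0.003 with slide 1 alone. Slide differences turned for B2m (−0.26 with quantile normalization, −0.25 with both, −0.10 to 0.12 with arrays left out), Tap1 (0.05, 0.02 and −0.47 to 0.20) and Psmb8 (−0.08 to 0.68). The cause was not tested.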
